A study of Caenorhabditis elegans with 4 samples.

Results

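Chromosome V carried 49 peaks of HPL-2 in the combined list, which held 280 on the other 5 nuclear chromosomes. It carried 5762 of the 30000 peaks of ChIP replicate 1 and 4240 of the 22864 peaks of ChIP replicate 2. These are all rows that the 3 deposited peak lists place on V, taken by their chromosome name, with no rank or score used. All libraries come from hermaphrodites of Caenorhabditis elegans strain YL472 at the young adult stage, grown at 20 °C. The strain is unc-119(ed3) III with the extrachromosomal element vrEx66, made by bombardment and not outcrossed, which carries unc-119(+) and HPL-2 tagged with GFP and FLAG behind the mex-5 promoter and in front of the HPL-2 3′UTR. The 4 samples are 2 precipitations with a goat antibody against GFP (ChIP) and 2 inputs, which are supernatant set aside before the precipitation. The inputs have no peak list, so nothing below is set against an input level, and the libraries include no precipitation from worms without the tag. The labels do not say whether the replicates came from separate cultures, so a difference between the replicate lists may be technical.

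HPL-2 is an HP1 family protein. HP1 proteins bind nucleosomes whose histone H3 is methylated at lysine 9 through a chromodomain and pair with each other through a chromoshadow domain. In C. elegans that methylation is densest on the repeat-rich arms of the autosomes, while the centres hold more of the broadly expressed genes. The mex-5 promoter is used for expression in the germline, so the tagged protein is not under the control of the hpl-2 gene itself. Chromosome V is the longest chromosome of the worm and is known for large families of chemoreceptor genes. None of the named worm genes in the transgene is at home on V, since the RefSeq annotation of assembly WBcel235 places hpl-2 and unc-119 on III and mex-5 on IV.

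All positions are in WormBase build WS220, in which no gene annotation was used here, and the sequence under the peaks was not analysed here. The number in each peak's name is its rank, with 1 the best. On V, 76 peaks of replicate 1 and 294 of the other replicate stood at their list's highest score. Among those tied peaks the order rests on the authors' numbering alone, as it does for all peaks of the combined list. The best peaks of a replicate, below, are its best-ranked ones, as many as the combined list holds, so that the next rank is 330. They include 46 peaks on V in replicate 1 and 49 in replicate 2, and all of them are at the highest score. Replicate 1 stops at exactly 30000 peaks, so its length may be a limit set on the list.

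Peaks were sparser on V than on every other chromosome but X in each of the 3 lists. The combined list held 2.34 peaks per Mb of V (95% interval 1.73 to 3.10), against 1.35 on X and 5.44 on III at the extremes and 3.53 over the other 5 nuclear chromosomes together. Replicate 1 held 275 peaks per Mb of V (268 to 283) and replicate 2 held 203 (197 to 209), against 305 and 234 over the others. These intervals are exact Poisson intervals and cover the counting of peaks only. No test was made, because peaks called from 2 libraries are not replicates of each other.

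In the replicate lists, but not in the combined list, the share of V was lower among the better-ranked peaks. V makes up 20.9% of the spanned nuclear sequence. In replicate 1 it held 14.9% of the best nuclear peaks (exact binomial 95% interval 11.1 to 19.4%), 16.3% of those ranked 330 to 1000, 17.4% from rank 1001 to 5000, 17.8% from 5001 to 10000, 19.4% from 10001 to 20000 and 20.8% after that. The share of V was thus higher in each successive rank class of that list, and in the last it came to its share of length (interval 20.04 to 21.6%). In replicate 2 the same classes gave 16.0%, 16.1%, 17.6%, 18.2%, 19.2% and 18.99%. There the last class, ranks 20001 to 22864, lay below the share of length (interval 17.6 to 20.5%). The combined list went the other way, with 30 of its first 164 peaks on V and 19 of its last 165. No test of either order was made.

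The 3 parts of V of equal length, 6.97 Mb each, are called the left arm, the centre and the right arm, and a peak belongs to the part that holds its midpoint. In the combined list the left arm held 11 peaks, the centre 22 and the right arm 16, or 1.58 (0.787 to 2.82), 3.15 (1.98 to 4.78) and 2.29 (1.31 to 3.73) peaks per Mb. The centre was the densest part, but its interval overlaps those of both arms. The arms together held 55.1% of the combined peaks of V (exact binomial 95% interval 40.2 to 69.3%), an interval that takes in the 66.7% of the length that lies in the arms. Over the other 4 autosomes together the arm share was 59.8%, from 53.5% on I to 74.5% on II.

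**Figure D1:**
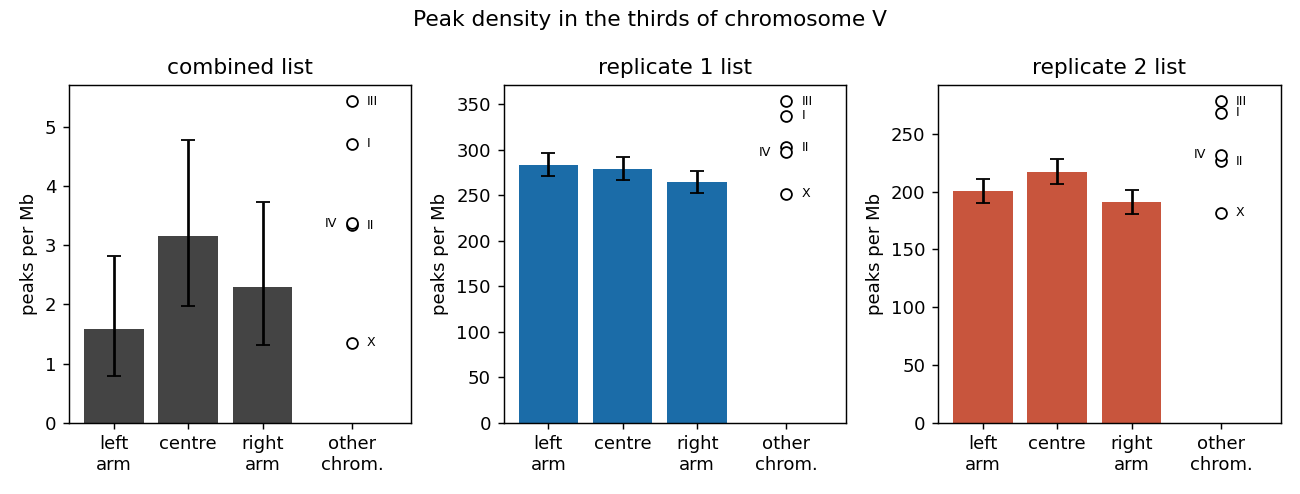
Peaks per Mb in the 3 equal parts of chromosome V (bars, with exact 95% Poisson intervals) for each list, and the density of each other nuclear chromosome over its whole length (open circles). The centre has the highest bar in the combined list (3.15) and in replicate 2 (217), and the left arm has it in replicate 1 (283).

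The full replicate lists were close to even over the parts. Replicate 1 held 283 peaks per Mb in the left arm, 279 in the centre and 264 in the right arm, and replicate 2 held 200.2, 217 and 191. In both lists the right arm was the sparsest part, and the parts differed by far less than in the combined list. Arm shares were 66.3% in replicate 1 and 64.3% in replicate 2, within the range of the other autosomes, which went from 65.7 to 67.6% and from 63.3 to 64.6%.

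The part that stood highest changed with rank. The centre's share of V peaks at ranks 330 to 1000 was 43.1% in the first replicate and 47.2% in the second, and from rank 1001 to 5000 it was 38.04% and 41.2%. Beyond rank 20000 it held 32.02% and 33.1%, close to an even share. Among the best peaks the order was another one in each replicate. Replicate 1 had 18 in the left arm, 15 in the centre and 13 in the right arm, and replicate 2 had 14, 17 and 18. Of the 18 in the right arm of replicate 2, 7 lay in the group of peaks described last, and 11 lay elsewhere. Over all V peaks at the highest score, 27 of 76 lay in the centre in replicate 1 (35.5%), compared with 133 of 294 in replicate 2 (45.2%). For replicates 1 and 2, the arms held 67.4% and 65.3% of the best V peaks, against 58.4% and 58.5% on the other autosomes together. At the highest score the arm shares were 64.5% and 54.8% on V, against 61.3% and 58.7%. Each V interval took in the value of the other autosomes. The centre's share by rank class was not measured on the other chromosomes.

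Within the parts, peaks were unevenly placed. In the 20 full bins of 1 Mb along V, replicate 1 held between 192 and 328 peaks with a median of 279.5, and replicate 2 held between 142 and 252 with a median of 205. The lowest bin was the same in both lists, the one from 2 to 3 Mb. Across the 20 bins Spearman's rho between the replicate counts was 0.57, a description of bins whose sequence composition is the same in both lists. The combined list had at most 5 peaks in a bin. It had none in the bins from 2 to 3, 7 to 8 and 17 to 18 Mb.

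**Figure D2:**
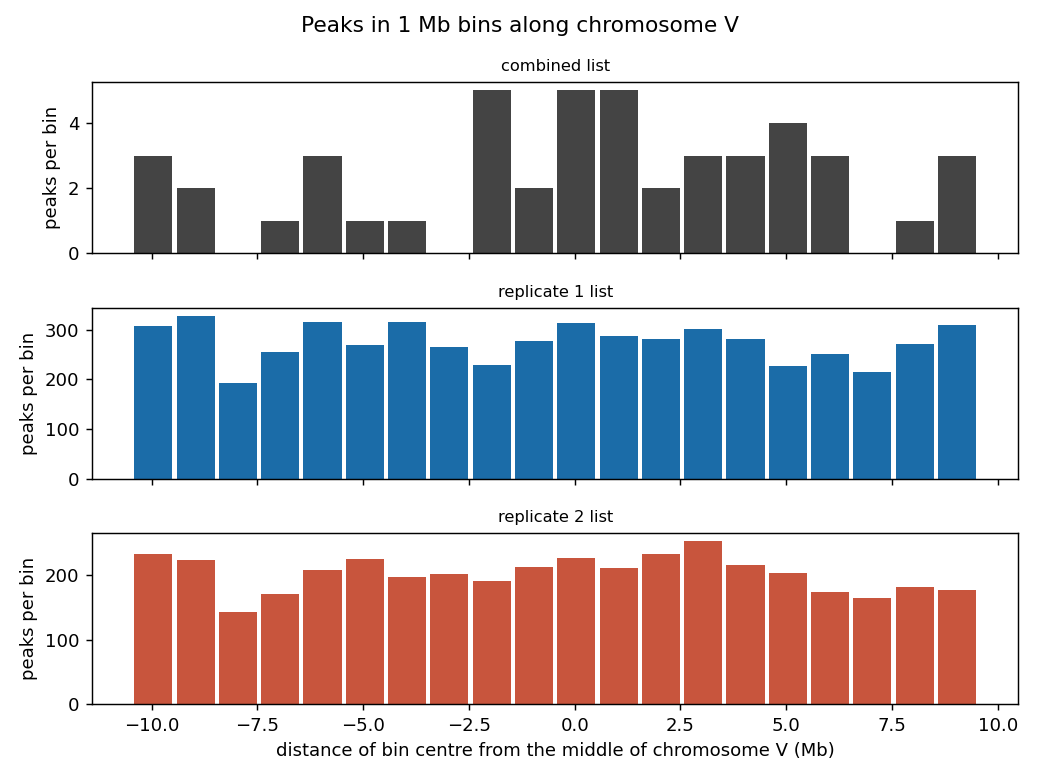
Peaks in the 20 full 1 Mb bins of chromosome V, by distance of the bin centre from the middle of the chromosome, for the combined list and each replicate. The bin that covers 2 to 3 Mb is the lowest in replicate 1 (192) and in replicate 2 (142) and holds no combined peak.

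The low bin contains the longest stretch with no peak in any of the 3 lists. It runs from 2345424 to 2569387 in the left arm, over 224 kb, and at the mean density of V it would hold 61.7 peaks of replicate 1 and 45.4 of replicate 2. The flanks of equal length held 53 and 71 peaks of replicate 1 and 43 and 44 of replicate 2, so the lists are filled on either side. Another stretch of 93.9 kb without peaks runs from 8807842 to 8901724 in the centre. The longest such stretch on any other chromosome was 57.1 kb, on III. Outside the empty stretch, the bin from 2 to 3 Mb held 247 peaks per Mb in replicate 1 and 183 in replicate 2, and the left arm held 293 and 207. Read coverage in these stretches was not analysed here, so whether they could have given peaks was not tested.

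Combined peaks left longer stretches bare. The longest, from 16965701 to 18967665 in the right arm, spans 2002 kb, with 471 peaks of replicate 1 and 340 of replicate 2 in it. None of these is among the best peaks of its list, although 1 of replicate 1 and 13 of replicate 2 reach the highest score. From 1872248 to 3584872, a stretch of 1713 kb that takes in the empty 224 kb, the replicates held 358 and 251 peaks. A further 1495 kb without a combined peak, from 15465400 to 16960058, leads up to the grouped peaks. The right arm thus holds a group of combined peaks standing between stretches of 1495 and 2002 kb that have none.

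Sites called in both ChIP lists were those that overlap by at least 1 bp. On V, 1531 of 5762 replicate 1 peaks overlapped a replicate 2 peak, 26.6% (exact binomial 95% interval 25.4 to 27.7%), against 29.3% of all nuclear peaks. In the other direction it was 1438 of 4240 peaks, 33.9% (32.5 to 35.4%), against 36.6%. By this measure V stood below chromosomes I, II, III and IV and above X in both directions. V is also the second sparsest nuclear chromosome, and the part of density in these shares was not tested.

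The shares that overlapped are given by rank as descriptions, with no test. Of the best V peaks, 41 of 46 in replicate 1 (89.1%, interval 76.4 to 96.4%) and 45 of 49 in replicate 2 (91.8%, 80.4 to 97.7%) met any peak of the other replicate. On the other nuclear chromosomes these shares were 81.3% and 87.9%. At ranks 330 to 1000 the V shares were 54.1% and 70.4%, against 56.7% and 68.8% on the others. At ranks 1001 to 5000 they were 39.05% and 39.8%, against 41.1% and 45.0%. Beyond rank 20000 they were 20.8% and 27.8%, against 24.2% and 30.5% on the other chromosomes. The intervals of V and of the others overlap in every rank class of both lists except beyond rank 20000 in replicate 1. There they ran from 19.1 to 22.6% on V and from 23.2 to 25.1% on the others.

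**Figure D3:**
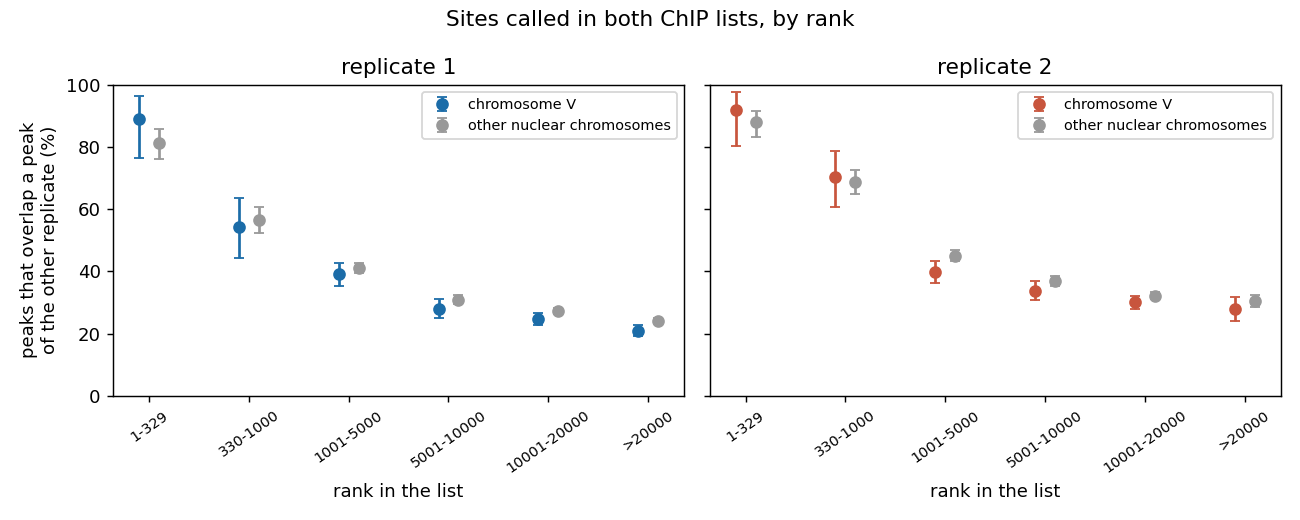
Share of peaks that overlap a peak of the other replicate by at least 1 bp, by rank class, for chromosome V and the other nuclear chromosomes together, with exact 95% binomial intervals. The V share goes from 89.1 to 20.8% in replicate 1 and from 91.8 to 27.8% in replicate 2, and the points of V lie below those of the others in every class from rank 1001 on.

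A best peak in both lists was rarer. Of the best V peaks of replicate 1, 11 of 46 (23.9%) overlapped a best peak of replicate 2, against 24.7% of all nuclear best peaks. The reverse share was 10 of 49 (20.4%), against 24.2%. With all peaks at the highest score of each list, 34 of 76 V peaks of replicate 1 had such a partner (44.7%, against 41.9% over the nuclear list), and 36 of 294 of replicate 2 had one (12.2%, against 12.0%). The interval around each of these V shares took in the nuclear value.

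On V, the midpoints of shared sites lay closer together, by median, where both peaks were at the highest score. Over the 1765 overlapping pairs on V, the midpoints lay a median of 197 bp apart, and 27.5% lay within 100 bp. Among the 37 pairs with both peaks at the highest score the median was 105 bp, and 15 pairs (40.5%) lay within 100 bp. These pairs are few, no interval was computed for them, and the distances were not measured on other chromosomes. Where both ranks were beyond 10000, the median over 570 pairs was 206 bp. Between the replicates there was little shift in 1 direction, with a median of -17 bp for replicate 2 minus replicate 1. Ranks of the 1531 replicate 1 peaks and their best-ranked partners had a Spearman rho of 0.21, and the value on the other nuclear chromosomes was 0.20.

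The 49 combined peaks of V were then traced in each replicate. The combined list is taken, from its name alone, to come from the same libraries, so its overlap with them is a description. All 49 overlapped a peak of each replicate, with a median rank of 284 in replicate 1 and 287 in replicate 2 for the best-ranked partner. The lowest-ranked partners stood at 18426 and 13622. Such partners were nearly as complete elsewhere. Of the 280 on the other chromosomes, 280 had one in replicate 1 and 274 had one in replicate 2. Their median ranks were 241 and 364.5. Of the 49, 11 were reached by best peaks of both replicates (22.4%, against 24.0% of all combined peaks). A further 15 were reached from replicate 1 only and 17 from replicate 2 only, which leaves 6 reached from neither. On the other chromosomes these classes held 95, 64 and 53 of 280 combined peaks. Best peaks of replicate 1 thus reached 53.1% of the combined peaks on V and 58.2% on the other chromosomes. For best peaks of replicate 2 the shares were 57.1% and 47.1%. No test of these differences was made. In the combined list V peaks were ranked somewhat better than others, with a median of 135 against 171.5 over all others together. The same holds for X, the sparsest chromosome, with a median of 138 and 16 of its 24 peaks among the first 164.

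By part, best peaks of both replicates reached 4 of 11 combined peaks in the left arm, 2 of 22 in the centre and 5 of 16 in the right arm. In the left arm no combined peak was missed by both replicates' best peaks, and in the centre 4 were. The median partner ranks were 175 and 195 in the left arm, 334 and 474 in the centre and 271.5 and 219.5 in the right arm, for replicates 1 and 2. The centre thus held the most combined peaks and the lowest-ranked partners, by median, and no test was made.

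In the left arm, the sites reached by best peaks of both replicates were combined peaks 22, 31, 38 and 222. Combined peak 22, the best of that arm, spans 1871612 to 1872247 and ranked 26 in replicate 1, where it met the best peak of V, and 270 in replicate 2. Combined peak 31, at 4755098 to 4755733, ranked 67 and 195. Combined peak 38, at 6782922 to 6783557, ranked 200 and 117, and combined peak 222, at 1262406 to 1263041, ranked 291 and 45. Each of these sites thus stood among the best peaks of both lists without being at the same place in them.

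The centre gave only combined peaks 21 and 186. Combined peak 21 spans 8500240 to 8500875 and ranked 60 and 178. Combined peak 186, at 13006682 to 13007317, ranked 139 and 291. Other well-ranked combined peaks of the centre were reached by best peaks of replicate 1 alone, such as combined peak 44 at 11782645 to 11783280, with ranks 101 and 605, and combined peak 45 at 13309671 to 13310306, with ranks 110 and 343. Of the 17 sites reached by best peaks of replicate 2 alone, 8 lay in the centre, as did 8 of the 15 reached by replicate 1 alone.

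In the right arm, combined peaks 61 and 218 overlap each other at 14008465 to 14009337 and share their best-ranked partners, ranked 166 and 152. They are overlapping calls counted as 2 peaks. Replicate 1 also had overlapping best peaks there, ranked 166 and 176. Combined peak 17, at 18967666 to 18967912, ranked 37 and 110. Its 247 bp make it the narrowest combined peak of V, where 45 of 49 peaks are 636 bp wide. Combined peak 103, at 15190796 to 15191431, ranked 140 and 300, and combined peak 123, at 19000297 to 19000932, ranked 187 and 292. The replicate 2 peak ranked 292 overlaps combined peak 123 by 321 bp, and the one nearest to it in midpoint ranked 9685. Among the 10 best-ranked combined peaks of V is also combined peak 50, at 5721589 to 5722224 in the left arm, with ranks 367 and 132.

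**Figure D4:**
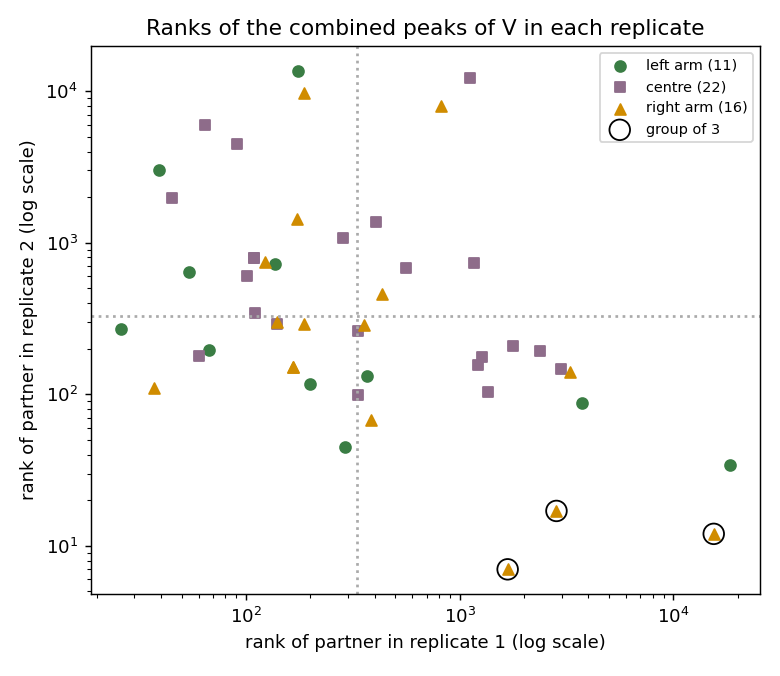
Rank of the best-ranked partner of each of the 49 combined peaks of V in replicate 1 (horizontal) and replicate 2 (vertical), both on log axes, by part of the chromosome. Dotted lines mark the last rank of the best peaks, and circles mark the group of 3 in the right arm, whose peaks rank 7, 12 and 17 in replicate 2 and 1677, 15455 and 2838 in replicate 1.

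Sites ranked far apart were found in both directions. Combined peak 135, at 3584873 to 3585508 in the left arm, ranked 34 in replicate 2 and 18426 in replicate 1. Combined peak 285, at 4889830 to 4890465, ranked 175 in replicate 1 and 13622 in replicate 2. Its neighbour combined peak 251, at 4891218 to 4891853, showed the opposite order, with 3739 in replicate 1 and 88 in replicate 2. Over all 49 combined peaks, the partner ranked better in replicate 1 for 27. On the other chromosomes it did for 157 of the 274 with a partner in both lists.

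The best V peaks of each replicate did not always enter the combined list. Of the 46 in replicate 1, 26 overlapped a combined peak (56.5%, against 59.1% of all nuclear best peaks of that list). Of the 49 in replicate 2, 28 did (57.1%, against 50.7%). The 5 best of replicate 1 all did, at ranks 26, 37, 39, 45 and 54. Ranks 39 and 54 belong to peaks at 6253 to 6742 and 8675 to 9164, at the left end of V, where their partners in replicate 2 ranked 3030 and 640. Combined peaks 158 and 80 lie over them, and no other nuclear chromosome had a combined peak within 50 kb of either end. Between combined peaks 158 and 80 lay a best peak of replicate 2, ranked 76, which overlapped neither. Of the 5 best of replicate 2, those ranked 7, 12, 17, 21 and 26, all lay in the grouped peaks of the right arm. Those ranked 21 and 26 overlapped no combined peak.

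In the combined list, the share of peaks with a neighbour within 5 kb was higher on V than on any other chromosome. Of its 49 combined peaks, 19 had another within 5 kb (38.8%, exact binomial 95% interval 25.2 to 53.8%), against 23.7% of all combined peaks and 8.33 to 23.7% on each of the other chromosomes. Peaks that overlap each other account for 6 of the 19. After overlapping peaks were merged, 13 of 46 regions of V had a neighbour within 5 kb (28.3%, 16.0 to 43.5%), against 26 of 263 on the other chromosomes (9.89%, 6.56 to 14.1%). Singly, the other chromosomes went from 3.13% on I to 17.5% on IV, and of their intervals those of II, III, IV and X overlap that of V. The intervals treat peaks as independent, V is 1 of 6 chromosomes looked at, and no test was made. At 10 kb the unmerged share was again highest on V, 42.9% against 27.9% over the others together. At 1 kb it was 12.2% on V and 12.1% over the others, with I at 19.7% and III at 13.3%. Without the grouped peaks of the right arm, 16 of 46 combined peaks of V still had a neighbour (34.8%).

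In the replicates the pattern was less clear. Among the best peaks, the share within 5 kb on V was 28.3% in replicate 1, above every other chromosome, and 30.6% in replicate 2, where IV was higher at 35.6%. In replicate 1, 6 of the 13 best V peaks with a neighbour overlap another best peak. Over all peaks at the highest score of replicate 1, the share was 26.3% on V and 26.2% on I, the next highest. It was 20.5% there on the other chromosomes together. Over all peaks at the highest score of replicate 2 the share was 34.7% on V and 42.8% on the other chromosomes together. In the full lists, whose peaks on V are spaced by a median of 2.08 kb in replicate 1 and 2.80 kb in replicate 2, nearly all peaks have a neighbour within 5 kb. These shares were 93.4% and 88.6% on V and 94.8% and 90.2% over the other chromosomes together, and only X was lower than V. The median spacing of combined peaks on V was 205 kb, with quartiles of 16.8 and 651 kb.

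Joined at 5 kb between midpoints, the combined peaks of V made 39 groups, with 30 single peaks, 8 pairs and 1 group of 3. The pairs of separate peaks lie at 6209 to 9269 and 4889830 to 4891853 in the left arm, at 10019651 to 10023568 and 10235616 to 10238551 in the centre and at 15186120 to 15191431 in the right arm. The other 3 pairs are overlapping calls. At the highest score, replicate 2 had 18 groups of 3 or more peaks on V and replicate 1 had 2. The larger number of tied peaks in replicate 2, 294 against 76, bears on these counts.

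The only group of 3 combined peaks on V was the one in the right arm, over 5642 bp. Combined peak 223 spans 16960059 to 16960506, combined peak 1 spans 16963280 to 16963891 and combined peak 81 spans 16965055 to 16965700. In replicate 2 their best partners ranked 12, 7 and 17, and in replicate 1 they ranked 15455, 1677 and 2838. The replicate 1 peak ranked 1677 reaches only 14 bp into combined peak 1, and of the replicate 1 peaks over it the one nearest in midpoint ranked 23438. The site that heads the combined list is therefore one that only replicate 2 ranked among its best peaks.

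Both replicates filled the interval densely, with different ranks. Replicate 1 had 10 peaks over it that covered 53.9% of its length, ranked from 1677 to 26210 with a median of 14611, and none at the highest score. Replicate 2 had 9 peaks that covered 46.8%, ranked from 7 to 1971 with a median of 26, and 8 of them were at the highest score. In the window from 16960001 to 16970000, which is 1 of 2093 windows of 10 kb along V, replicate 1 held 10 peaks and replicate 2 held 9, where the median window held 2 in either list. That is not the fullest window by count, since 5 windows of replicate 1 and 3 of replicate 2 held more. By peaks at the highest score it was the fullest of replicate 2, with 8 against 4 in the next. The replicate 2 counts of 9 and 8 include 1 interval that is listed as 2 peaks, ranked 17 and 552.

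The best peaks of replicate 2 extended beyond the combined group on its left. Joined at 5 kb, 7 best peaks formed a group from 16958916 to 16965646, ranked 7, 12, 17, 21, 26, 28 and 127. With all peaks at the highest score the group held 11, among them the interval listed as 2 peaks. At its left edge, the peaks ranked 127 and 471 in replicate 2, at 16958916 to 16959132 and 16959073 to 16959288, overlap the replicate 1 peak at 16958610 to 16959099, ranked 2008. That peak overlaps the one at 16958337 to 16958826, whose rank of 587 is the best of replicate 1 in this neighbourhood. No combined peak was called there.

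**Figure D5:**
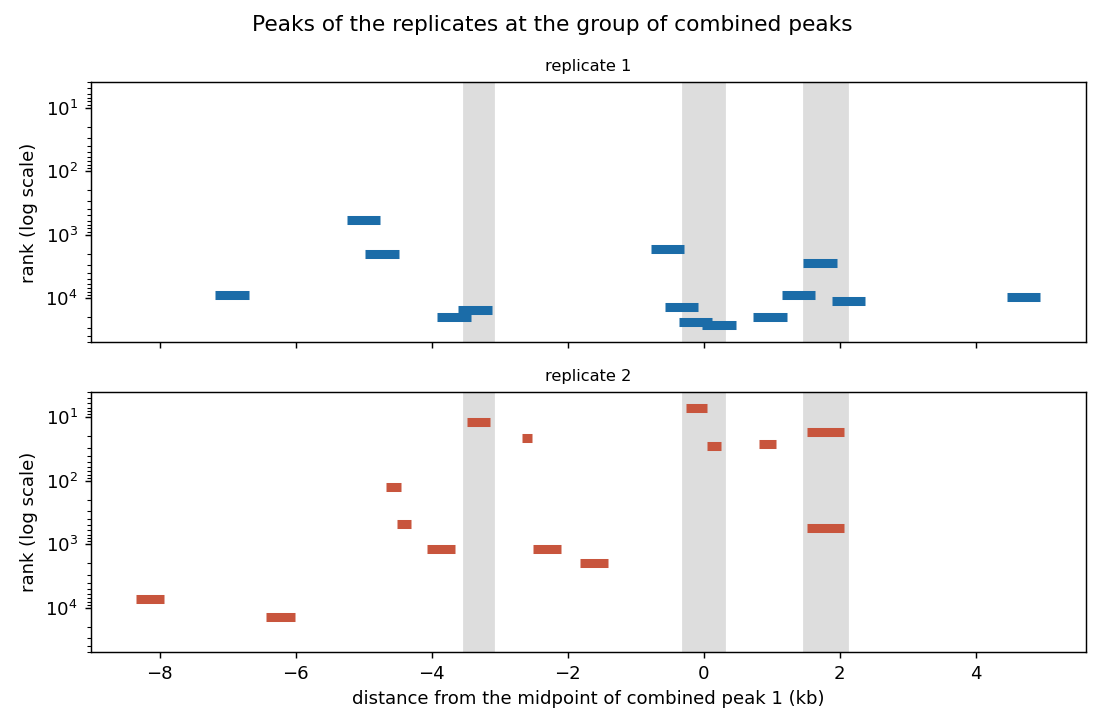
Peaks of each replicate around the 3 combined peaks of the group (grey bands), by distance from the midpoint of combined peak 1 and by rank on a log axis with the best at the top. Replicate 1 has its best rank here, 587, to the left of the grey bands, and replicate 2 has peaks ranked 7, 12 and 17 in them.

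The group holds the only nuclear peaks of unusual width in the replicate lists, all of them from replicate 2. Peaks of replicate 2 are 420 bp wide except for 21, of which 12 are mitochondrial and 9 lie on V, all of them within 16958916 to 16965646. Those 9 are between 161 and 544 bp wide. The peaks ranked 17 and 552 have the same coordinates, 16965103 to 16965646, so 1 interval is listed as 2 peaks. In replicate 1 all 5762 V peaks are 490 bp wide, and the 24 of another width in that list are all mitochondrial. In the combined list 15 peaks are not 636 bp wide, and on V these are the 3 of the group and combined peak 17. How the peak caller set the widths is not stated in these sources. The native locus of no named worm gene of the transgene lies on V, and whether the extrachromosomal element carries other sequence from this interval was not tested.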

How the data were processed

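HPL-2 binding was measured by ChIP-seq in 2 ChIP libraries, with 2 inputs that have no peak list. Per the labels' protocols, worms were fixed in 2% formaldehyde and sonicated, and 10% of the supernatant was kept as input. Per the file headers, the deposited lists give positions in WS220, and their source field names SPP followed by IDR. Each peak has a score from the authors, whose scale is not named, and the score was used only to find ties and to check ranks within a list. The aligner, tool versions, thresholds and read depth are not given in the sources used, so no read-based interval is given, and 95% intervals cover the counting of peaks only. The 2 ChIP lists are named as replicates 2 and 3 in their files and are called replicates 1 and 2 here after the titles of the libraries that hold them.

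Chromosome lengths are the highest peak end on each chromosome in any of the 3 lists. Midpoints placed peaks in parts and bins. Overlap needed 1 bp, and neighbours were counted within 5 kb. Alternatives were a reciprocal overlap of 50%, midpoints within 100 bp, other ranks, distances and definitions of arms, merged peaks, and each replicate alone. Named sites were the 10 best combined peaks, sites reached by best peaks of both replicates, the 5 best of each replicate, groups and bare stretches. Other sites, such as those ranked far apart, were picked after their values were seen. V and these rules were chosen with earlier results of these data known. No test was made. The counting steps recovered all 5 planted answers on a made-up list of 300 sites. Tables were made with pandas 2.3.3 and numpy 2.4.6 in Python 3.11.15, intervals with scipy 1.17.1 and figures with matplotlib 3.10.9.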

Additional observations from a re-analysis of the deposited data

How the results depend on the processing

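The density of combined peaks on V was 2.34 per Mb and depends on the list by construction, with 275 per Mb in the full list of replicate 1 and 203 in the full list of replicate 2. It was 1.43 when the combined list was limited to its first 164 ranks, which leaves fewer peaks. With 1 replicate alone, taking as many of its best nuclear peaks as the combined list holds (49 on V in replicate 1 and 51 in replicate 2, since mitochondrial peaks are passed over), it was between 2.34 and 2.44. The best peaks as used in the report, whose ranks count mitochondrial peaks, gave 2.20 in replicate 1 and 2.34 in replicate 2. The arm share of V was 55.1%, and 36.7% with narrower arms of 25% of the length each. With 1 replicate alone, taken in the same way, it was between 64.7 and 65.3%, and the report's best peaks gave 67.4 and 65.3%, all inside the interval of the combined list. The share of replicate 1 peaks of V also called in replicate 2 was 26.6%. It was 15.1% with a reciprocal overlap of 50%, 8.42% with midpoints within 100 bp, 6.25% for the best 100 nuclear peaks of each list (1 of 16), 19.1% for the best 1000, 22.7% for the best 10000, 44.7% at the highest score and 33.9% for replicate 2 peaks. The share of combined peaks with a neighbour was 38.8% at 5 kb, 12.2% at 1 kb, where V is no longer the highest chromosome, between 26.5 and 29.4% with 1 replicate alone, and 28.3 and 30.6% with the report's best peaks. Of the 49 combined peaks, the 11 reached by best peaks of both replicates became 27 with peaks at the highest score, 49 with any peak, and 26 to 28 with the report's best peaks of 1 replicate alone. The right-arm group held 3 combined peaks, 1 when joined at 1 kb, and 14 peaks in either full replicate list. Leaving out that group, an alternative added after the data were seen, kept density, arm share and neighbour share in their intervals, and so did leaving the empty 224 kb out of the length for density. No paired analysis was possible because the inputs have no peak list, so a replicate number pairs no values. Read depth is unknown, and the order of tied peaks limits every value that rests on the best peaks.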
